A study of Homo sapiens with 9 samples.

Results

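SR proteins and hnRNPs are the main families of RNA-binding proteins that decide which exons are kept in a messenger RNA. Genes of both families were followed in RNA sequencing of OVCAR5 cells, an established human ovarian cancer line. A gene was included when it was protein-coding, its symbol was SRSF followed by a number, began with HNRNP or was TRA2A or TRA2B, and its mean was at least 1 CPM, a count scaled to library size, over the 9 libraries. Of 41 genes with such a symbol, 34 met that level, 13 of them SR genes and 21 hnRNP genes, out of 60649 gene identifiers in the table and 19674 genes tested. All 34 passed the filter on low counts, and their lowest count in any library was 1337, for HNRNPA1L3. The other 7 genes were HNRNPCL1, HNRNPCL2, HNRNPCL3, HNRNPCL4, SRSF12, HNRNPUL2-BSCL2 and HNRNPA1L2, which averaged 0 to 0.208 CPM. The member nearest the limit, HNRNPA1L3, averaged 31.8 CPM.

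The cells carried a lentiviral construct and were kept under puromycin selection. The libraries fall into 3 groups of 3, labelled NC, SM2 and SM4. According to the labels NC is the control, and METTL3 was knocked down in SM2 and in SM4. METTL3 is the catalytic subunit of the complex that writes N6-methyladenosine (m6A) into RNA. The labels call the control parental, whereas the methods describe a control hairpin, and they name no hairpin for SM2 or SM4. The METTL3 values given below go against this assignment of control and knockdown. A source field names a different OVCAR line for each SM4 library, although the cell line field gives OVCAR5 throughout. Nothing in the labels says that the 3 libraries of a group came from separate cultures, so p-values measure the spread between these libraries, which may be technical.

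SR proteins carry RNA recognition motifs and a domain rich in arginine and serine, and they usually promote inclusion of the exons they bind. hnRNPs coat nascent transcripts and often act against SR proteins at the same sites, with roles in RNA export, stability and translation as well. Genes of both families tend to be transcribed at high levels in dividing cells, and many limit their own messenger RNA through exons whose inclusion leads to nonsense-mediated decay. Members of both families have been tied to m6A. The nuclear reader YTHDC1 binds SRSF3 and SRSF10, HNRNPC binds uridine tracts that m6A makes accessible, and HNRNPA2B1 has been described as binding m6A-bearing transcripts.

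Several hnRNP genes have processed copies elsewhere in the genome, which bears on how their reads can be counted. A stretch of the longest coding exon is shown for 2 members beside the most relevant copy, 5′ to 3′ on the strand of the gene (GRCh38), with a capital where gene and copy differ. HNRNPA3 (exon 4, chr2:177216023-177216142, plus strand) stands for itself and for HNRNPA3P6 (chr3:75214937-75215056, plus strand), and HNRNPC (exon 3, chr14:21234014-21234133, minus strand) is set beside HNRNPCP2 (chr2:189923396-189923515, plus strand).
HNRNPA3 and HNRNPA3P6: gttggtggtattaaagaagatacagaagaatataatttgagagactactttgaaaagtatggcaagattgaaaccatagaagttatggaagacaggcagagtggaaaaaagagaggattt
HNRNPC: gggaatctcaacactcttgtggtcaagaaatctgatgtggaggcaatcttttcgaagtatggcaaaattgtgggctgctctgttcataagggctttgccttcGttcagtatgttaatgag
HNRNPCP2: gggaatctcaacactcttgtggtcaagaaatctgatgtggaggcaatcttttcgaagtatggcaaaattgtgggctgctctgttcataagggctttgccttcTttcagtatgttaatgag
Over these 120 bases, HNRNPCP2 differed from the gene at 1 base and HNRNPA3P6 at 0. Over the aligned coding sequence, HNRNPA3P6 was identical to HNRNPA3 at 995 of 999 (99.6%) and HNRNPCP2 to HNRNPC at 868 of 878 (98.9%).

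As a measure of ambiguity over whole genes, 22.2% of the exonic 31-base words of HNRNPA1 also occurred at another place in the genome. The share was 39.9% for HNRNPA3, 29.5% for HNRNPK, 20.3% for HNRNPC and 60.5% for HNRNPA1L3. It was 0% for SRSF7 and HNRNPLL, 0.140% for HNRNPUL2, 1.44% for HNRNPH3 and 2.46% for SRSF1. Values of HNRNPA1L3 and its parent are therefore given below as uncertain, since the counting could have split reads between them. How the counting treated reads with several matches is not given in the sources used here.

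**Figure D1:**
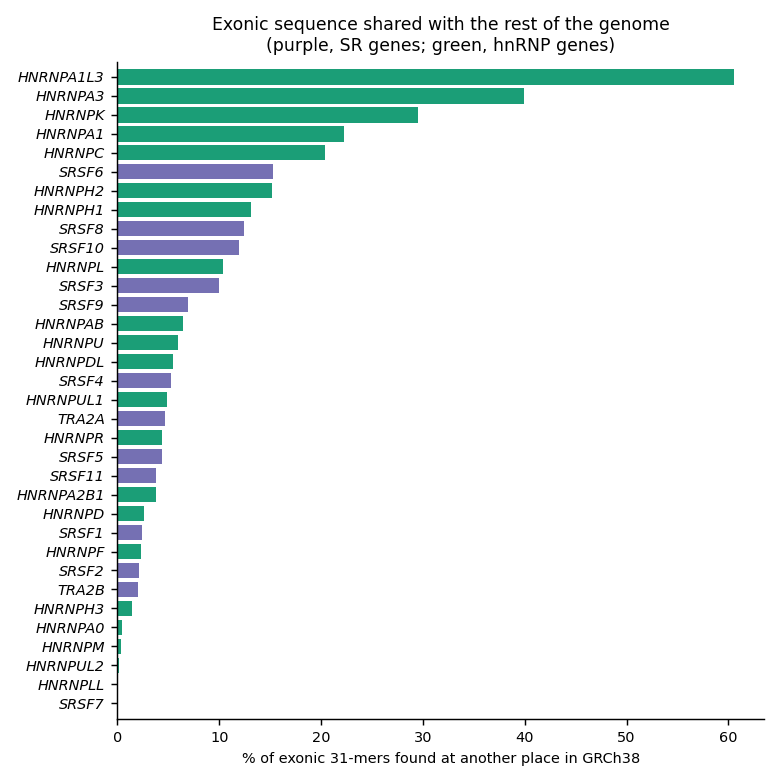
Share of each member's exonic 31-base words (horizontal axis, %) that also occur at another place in GRCh38, with SR genes in purple and hnRNP genes in green. HNRNPA1L3 (60.5%), HNRNPA3 (39.9%), HNRNPK (29.5%), HNRNPA1 (22.2%) and HNRNPC (20.3%) lead, all of them hnRNP genes.

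Before the members, METTL3 itself was examined, since it checks the labels. METTL3 was at 36.3, 34.4 and 36.6 CPM in the libraries labelled NC, at 37.1, 39.8 and 40.0 CPM in those labelled SM2 and at 60.6, 57.5 and 62.4 CPM in those labelled SM4. All SM4 libraries were above all others, and no library labelled as a knockdown was below the highest NC library. The log2 fold change was 0.75 for SM4 against NC (SE 0.05, edgeR adjusted p = 2.2e-09) and 0.12 for SM2 against NC (SE 0.05, edgeR adjusted p = 0.12). SM4 also exceeded SM2, by 0.63 on the log2 scale (edgeR adjusted p = 7.5e-08). METTL3 messenger RNA thus went against the labels, with NC and SM2 close to each other and both below SM4, so that NC cannot be taken as the control nor SM4 as a knockdown on these values. The labels are kept here as names only. Were SM4 the control, SM4 against NC and SM4 against SM2 would each set control against knockdown with the sign turned, and SM2 against NC would compare knockdowns with each other.

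Totals ranged from 44103272 to 63693728 counts per library, so that 1 CPM corresponded to 44.1 to 63.7 counts. The epithelial genes EPCAM, CDH1, KRT7, KRT8, KRT18 and KRT19 lay between 595 and 5988 CPM. At an edgeR adjusted p below 0.05 (called), SM2 against NC had 3 of the 6 higher and 2 lower. SM4 against NC had 3 higher and 1 lower, and SM4 against SM2 had 0 called. The shares called among protein-coding genes with a mean of at least 30 CPM were 33.6%, 32.4% and 21.1% in turn. Of 4 genes used for serous ovarian cells, PAX8 lay at 7.90 to 9.57 CPM, MUC16 at 7.31 to 29.9 CPM, and WT1 and SOX17 at no more than 0.208 CPM. Of 8 genes of blood, stromal and endothelial cells, PTPRC, CD3E, DCN and VWF were at 0 to 0.237 CPM, COL3A1 at no more than 0.853 CPM, and LYZ, COL1A1 and PECAM1 at 5.30 to 53.8 CPM. Some of these markers moved between groups by more than any member did. PECAM1, an endothelial adhesion molecule, was at 5.48 ± 0.21 CPM in NC, 8.23 ± 0.64 in SM2 and 13.7 ± 1.14 in SM4 (edgeR log2 0.59 and 1.32 against NC, adjusted p = 0.00016 and 2.3e-09). LYZ, a lysozyme of myeloid and some epithelial cells, was at 36.7 ± 1.76, 51.9 ± 1.78 and 32.7 ± 1.36 CPM (edgeR log2 0.50 and -0.17, adjusted p = 1.3e-06 and 0.038). MUC16 was at 8.40 ± 1.21, 23.4 ± 6.45 and 11.04 ± 2.94 CPM (edgeR log2 1.48 in SM2, adjusted p = 2.5e-06). The part of these shifts in the members' results was not tested. SM2 replicate 3 stood apart in the families studied here. The summed hnRNP level divided by the summed SR level was 3.43 in that library, against 3.82 and 3.77 in SM2 replicates 1 and 2 and 3.57 to 3.70 in the NC and SM4 libraries.

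The members together took 1.15% to 1.18% of all counts in every library. Levels between genes are compared as TPM, a length-scaled abundance, over the union of annotated exons, which understates a gene whose rarely used exons make that union long. Among hnRNP genes, HNRNPAB, a close relative of the A/B proteins, was highest with a mean of 985 TPM over the 9 libraries, and HNRNPLL, a relative of HNRNPL, was lowest with 46.2 TPM. Among SR genes, SRSF2, a classical SR protein that stays in the nucleus, was highest with 443 TPM, and SRSF4, one of the larger SR proteins, was lowest with 58.5 TPM. Its neighbour SRSF10 averaged 60.7 TPM, and the means ± SD of the 2 genes overlapped in all 3 groups. In raw reads the most abundant member was HNRNPA2B1, at 1832 to 1937 CPM. Its exon union spans 12613 bases, against 3628 in its reference transcript (MANE Select). For HNRNPAB the lengths are 2118 and 1770 bases. The ranks by TPM therefore hold for exon unions only, and ranks over single transcripts were not tested.

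**Figure D2:**
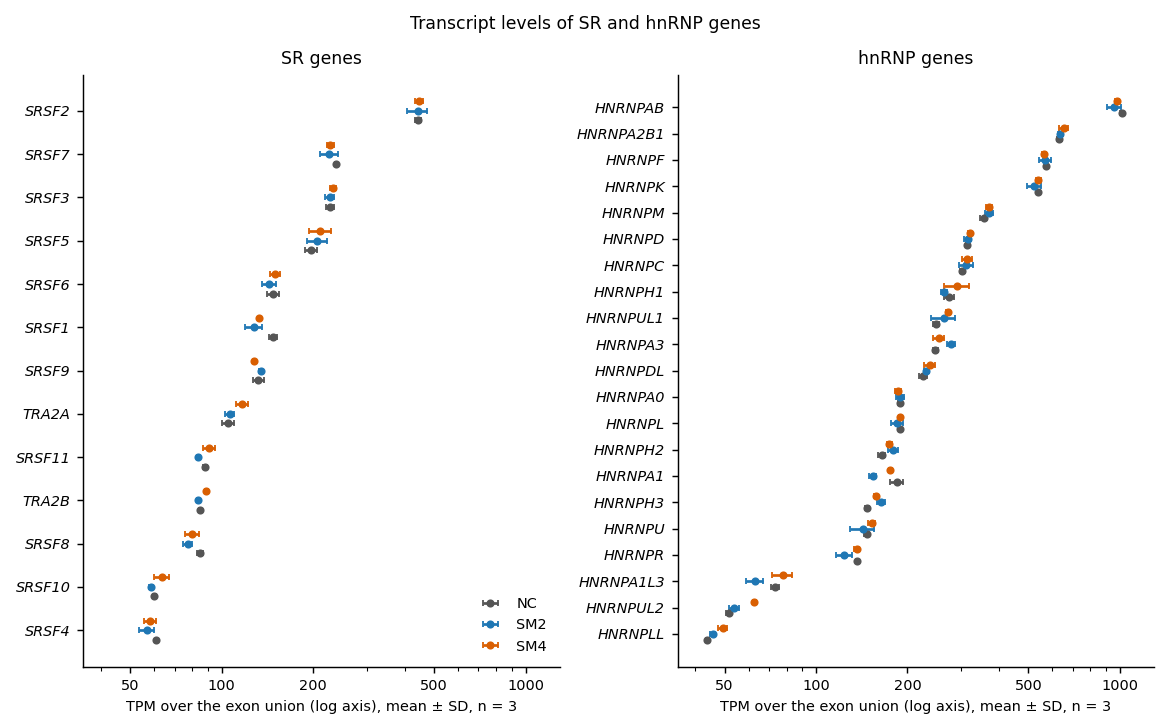
TPM over exon unions of the 13 SR genes and 21 hnRNP genes (horizontal log axis) as mean ± SD of 3 libraries in NC (grey), SM2 (blue) and SM4 (orange). HNRNPAB is highest at a mean of 985 TPM and HNRNPLL lowest at 46.2 TPM, and the 3 groups of each gene lie close together relative to the distance between genes.

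Spread within a gene was small. The coefficient of variation of TPM over all 9 libraries was 1.80% for HNRNPD, an AU-rich element binding protein and the steadiest member, and 10.7% for HNRNPA1L3, the most variable. HNRNPUL2 (9.42%), HNRNPA1 (8.57%) and SRSF1 (7.37%) followed. The summed SR level was 2534 ± 16.9 CPM in NC, 2486 ± 116 in SM2 and 2512 ± 29.6 in SM4 (SD, n = 3). The summed hnRNP level was 9091 ± 14.3, 9121 ± 141 and 9162 ± 31.5 CPM. For SR genes the ranges of the 3 groups overlapped, at 2521 to 2553, 2414 to 2620 and 2478 to 2530 CPM. For hnRNP genes the 3 SM4 libraries (9126 to 9183 CPM) were above the 3 NC libraries (9080 to 9107 CPM), while SM2 spanned 8985 to 9268 CPM. With 3 libraries against 3, an exact permutation test of such a sum cannot reach 0.05, and none was run.

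The first question was how many of the 34 genes differed between the libraries labelled SM2 and NC. By edgeR's quasi-likelihood test with an adjusted p below 0.05 (called), 7 of 34 (20.6%) were called, 3 higher and 4 lower. Of all genes tested, 22.3% were called, 12% as higher and 10.3% as lower. Among the 6657 protein-coding genes with a mean of at least 30 CPM, 33.6% were called. The members' share was thus near that of all genes and below that of protein-coding genes of at least 30 CPM, a floor rather than a match by level. The 3 higher genes were HNRNPA3, HNRNPH3 and HNRNPH2, and the 4 lower ones were HNRNPA1, HNRNPA1L3, SRSF1 and HNRNPR. By family, 1 of 13 SR genes and 6 of 21 hnRNP genes were called.

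Changes of the members were small in that comparison. The log2 fold changes ran from -0.26 (HNRNPA1) to 0.18 (HNRNPA3), with a median of -0.00063 and a median size of 0.057, beside a median size of 0.16 over all genes tested and 0.099 over protein-coding genes of at least 30 CPM. In 32 of 34 members (94.1%), the whole 95% interval lay within 0.3 of 0 on the log2 scale, against 75.7% of the protein-coding genes of at least 30 CPM. At an unadjusted p below 0.05 there were 9 of 34 members. The count rested on single libraries, being 3 without NC replicate 1, 4 without NC replicate 2 and 8 without SM2 replicate 3. HNRNPA1, HNRNPA3 and SRSF1 were called in all of these fits.

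**Figure D3:**
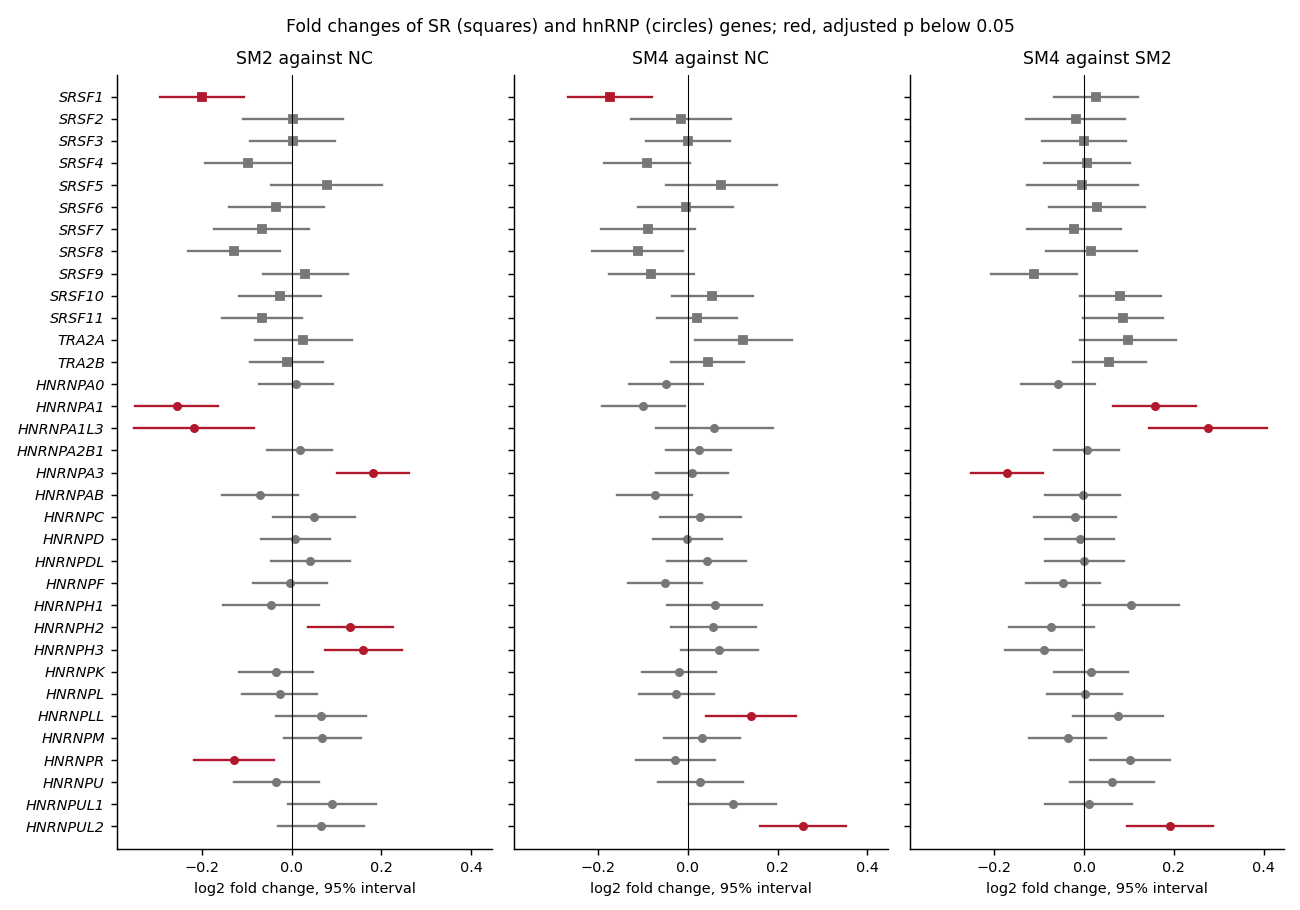
Log2 fold change of the 34 members (points, with 95% intervals as lines) in 3 panels (SM2 to NC, SM4 to NC, SM4 to SM2), with SR genes as squares, hnRNP genes as circles and genes past the adjusted p threshold in red. The values lie between -0.26 and 0.28, with 7, 3 and 4 genes in red.

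For the libraries labelled SM4 against NC, 3 of 34 members (8.82%) were called, with HNRNPUL2 and HNRNPLL higher and SRSF1 lower. The share over all genes tested was 21.2%, 11% as higher and 10.2% as lower, and over protein-coding genes of at least 30 CPM it was 32.4%. Log2 fold changes of the members ran from -0.17 (SRSF1) to 0.26 (HNRNPUL2), with a median of 0.015 and a median size of 0.053, beside a median size of 0.16 over all genes. At an unadjusted p below 0.05 there were 7 members. The count was 1, HNRNPUL2 alone, without NC replicate 1 or without SM4 replicate 1, and 5 without SM2 replicate 3, a library that enters this comparison only through the shared estimate of spread. With only the 6 libraries compared in the fit, it was 8, adding HNRNPA1, HNRNPUL1, SRSF7, SRSF8 and TRA2A.

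Because both comparisons share the libraries labelled NC, SM4 was also tested against SM2, a comparison without them. There 4 of 34 members (11.8%) were called, with HNRNPUL2, HNRNPA1 and HNRNPA1L3 higher in SM4 and HNRNPA3 lower. The share over all genes tested was 12.8%, 6.04% as higher and 6.76% as lower, and 21.1% over protein-coding genes of at least 30 CPM. No SR gene was called by edgeR in SM4 against SM2, where 1 of 13 had an unadjusted p below 0.05 and DESeq2 made 0 SR calls. Without SM2 replicate 3, however, TRA2A was called there.

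Of the SR genes, SRSF1 was the only one called in either comparison with NC. SRSF1 (chromosome 17, 58000919 to 58007346, minus strand, GRCh38) is the founding SR protein and an oncoprotein when overproduced. It was at 202, 202 and 191 CPM in NC, 183, 168 and 167 CPM in SM2, and 174, 179 and 174 CPM in SM4. Every SM2 and SM4 library was below every NC library. The log2 fold change was -0.20 for SM2 (SE 0.04, edgeR adjusted p = 0.0025), a 12.9% lower level, and -0.17 for SM4 (SE 0.04, edgeR adjusted p = 0.0078), 11.3% lower. In SM4 the call was lost without NC replicate 1 (adjusted p = 0.056) or without SM4 replicate 1 (adjusted p = 0.055) in edgeR. SM4 and SM2 were not separated from each other, with a difference of 0.03 (95% interval -0.07 to 0.12).

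The other 10 SRSF genes gave log2 fold changes of -0.13 to 0.08 in SM2 and -0.11 to 0.07 in SM4, with none called. SRSF8, a retrogene relative of SRSF2, came closest to the threshold. It was at 86.4, 84.5 and 84.3 CPM in NC, 78.8, 77.9 and 76.7 CPM in SM2 and 80.5, 82.2 and 73.2 CPM in SM4, and no SM2 or SM4 library reached the NC range. Its edgeR adjusted p was 0.066 for SM2 and 0.11 for SM4. TRA2A, a partner of SR proteins at purine-rich exonic enhancers, was at 87.7, 88.7 and 81.3 CPM in NC and 93.5, 90.5 and 96.7 CPM in SM4 (log2 0.12, edgeR adjusted p = 0.099). Its paralog TRA2B had log2 values of -0.01 and 0.04, with intervals inside 0.13 of 0 in both.

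HNRNPA1 (chromosome 12, 54280193 to 54287088, plus strand) encodes an abundant splicing silencer that competes with SRSF1 for 5′ splice sites. It was at 292, 301 and 271 CPM in NC, 233, 245 and 245 CPM in SM2, and 264, 271 and 271 CPM in SM4. All SM2 libraries were below all others, and SM4 overlapped NC. The log2 fold change in SM2 was -0.26 (SE 0.04, edgeR adjusted p = 0.00021), 16.3% lower. In SM4 it was -0.10 (SE 0.04, edgeR adjusted p = 0.12). SM4 exceeded SM2 by 0.16 (edgeR adjusted p = 0.021), a call that was lost without SM2 replicate 1, SM4 replicate 2 or SM4 replicate 3, with adjusted p up to 0.082 over all alternatives. The HNRNPA1 to SRSF1 ratio of CPM was 1.45 ± 0.038 in NC, 1.40 ± 0.11 in SM2 and 1.53 ± 0.021 in SM4 (SD, n = 3). All HNRNPA1 values are uncertain, since 22.2% of the gene's exonic words occur elsewhere.

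HNRNPA1L3 (chromosome 16, 51553436 to 51647132, plus strand), a gene derived from HNRNPA1, was at 33.6, 32.9 and 32.0 CPM in NC, 29.8, 27.8 and 27.1 CPM in SM2, and 35.9, 35.5 and 31.1 CPM in SM4. SM2 was lowest, as for HNRNPA1. The edgeR log2 fold changes were -0.22 for SM2 (SE 0.06, adjusted p = 0.017), 0.06 for SM4 (adjusted p = 0.58) and 0.28 for SM4 against SM2 (SE 0.06, adjusted p = 0.0052). The call in SM2 was lost without NC replicate 1, NC replicate 2 or SM2 replicate 2 (adjusted p up to 0.071). These values are uncertain, because 60.5% of its exonic words occur elsewhere, and whether the counts belong to HNRNPA1L3 or to HNRNPA1 was not tested.

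HNRNPA3 (chromosome 2, 177212694 to 177223959, plus strand), an A/B protein involved in cytoplasmic RNA trafficking, went the other way. It was at 379, 381 and 369 CPM in NC, 429, 427 and 423 CPM in SM2, and 390, 370.0 and 376 CPM in SM4. The 3 SM2 libraries stood above the other 6. The log2 fold change was 0.18 in SM2 (SE 0.04, edgeR adjusted p = 0.0016), 13.4% higher, and 0.01 in SM4 (95% interval -0.07 to 0.09). SM4 was below SM2 by 0.17 on the log2 scale (edgeR adjusted p = 0.0046). Both calls were made in all 17 alternatives, among them copies added to their parents. Even so, 39.9% of the exonic words of HNRNPA3 occur elsewhere, so its level is uncertain. The gene also overlaps NFE2L2 (167 CPM) on the opposite strand, and whether strand was used in counting is not given in the sources used here.

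In the F/H family, whose members bind runs of guanine, HNRNPH3 and HNRNPH2 were higher in SM2 than in NC. HNRNPH3 was at 181, 184 and 188 CPM in NC, 211, 199.6 and 207 CPM in SM2, and 189, 196 and 195 CPM in SM4. Its log2 fold change in SM2 was 0.16 (SE 0.04, edgeR adjusted p = 0.0071), lost without NC replicate 1 (adjusted p = 0.061), and in SM4 it was 0.07 (edgeR adjusted p = 0.27). HNRNPH2, which lies on the X chromosome, was at 88.2, 86.1 and 89.6 CPM in NC, 99.4, 92.2 and 97.3 CPM in SM2, and 92.0, 93.4 and 89.1 CPM in SM4. Its log2 fold change of 0.13 in SM2 (SE 0.05) passed narrowly (edgeR adjusted p = 0.045) and was lost in 11 of 17 alternatives, among them leaving out any NC or SM4 library, with adjusted p up to 0.18. In SM4 against SM2 neither HNRNPH3 (log2 -0.09, edgeR adjusted p = 0.17) nor HNRNPH2 (log2 -0.07, edgeR adjusted p = 0.33) was called. HNRNPF and HNRNPH1, the abundant relatives, were not called in any comparison. HNRNPF differed from NC by -0.0035 (SM2) and -0.05 (SM4) on the log2 scale, and HNRNPH1 by -0.05 and 0.06.

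HNRNPR, which binds messenger RNA in neuronal and other cells, was lower in SM2 than in NC. It was at 276, 278 and 275 CPM in NC, 264, 252 and 241 CPM in SM2 and 268, 280 and 265 CPM in SM4. The NC libraries were close together and the SM2 libraries were all below them. The log2 fold change in SM2 was -0.13 (SE 0.04, edgeR adjusted p = 0.034). That call was lost without any 1 of the NC libraries, SM2 replicate 2, SM2 replicate 3 or SM4 replicate 1. The adjusted p was then up to 0.11. SM4 against SM2 gave 0.10 (edgeR adjusted p = 0.13) and was not called.

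HNRNPUL2 (chromosome 11, 62712630 to 62727457, minus strand) is a relative of the scaffold protein HNRNPU that takes part in the response to DNA breaks. It was at 65.5, 65.2 and 63.6 CPM in NC, 69.9, 65.9 and 67.5 CPM in SM2, and 75.5, 78.5 and 78.1 CPM in SM4. The 3 SM4 libraries were above the other 6. The log2 fold change was 0.26 in SM4 (SE 0.05, edgeR adjusted p = 0.00029), 19.5% higher, against 0.07 in SM2 (edgeR adjusted p = 0.35). SM4 exceeded SM2 by 0.19 (edgeR adjusted p = 0.0074), and both calls involving SM4 were made in all 17 alternatives. The readthrough transcript HNRNPUL2-BSCL2, which overlaps it on the same strand, had 0 counts. How reads overlapping both genes were counted is not given in the sources used here, so this does not show that the readthrough was absent. HNRNPLL, the regulator of CD45 splicing in lymphocytes, was at 59.3, 61.8 and 60.5 CPM in NC, 62.6, 63.7 and 63.7 CPM in SM2, and 65.0, 70.2 and 65.1 CPM in SM4. Its log2 fold change in SM4 was 0.14 (SE 0.05, edgeR adjusted p = 0.041). That call was lost in 8 of 17 alternatives, among them leaving out any NC or SM4 library, with adjusted p up to 0.21. SM4 against SM2 gave 0.08 (edgeR adjusted p = 0.35) and was not called.

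**Figure D4:**
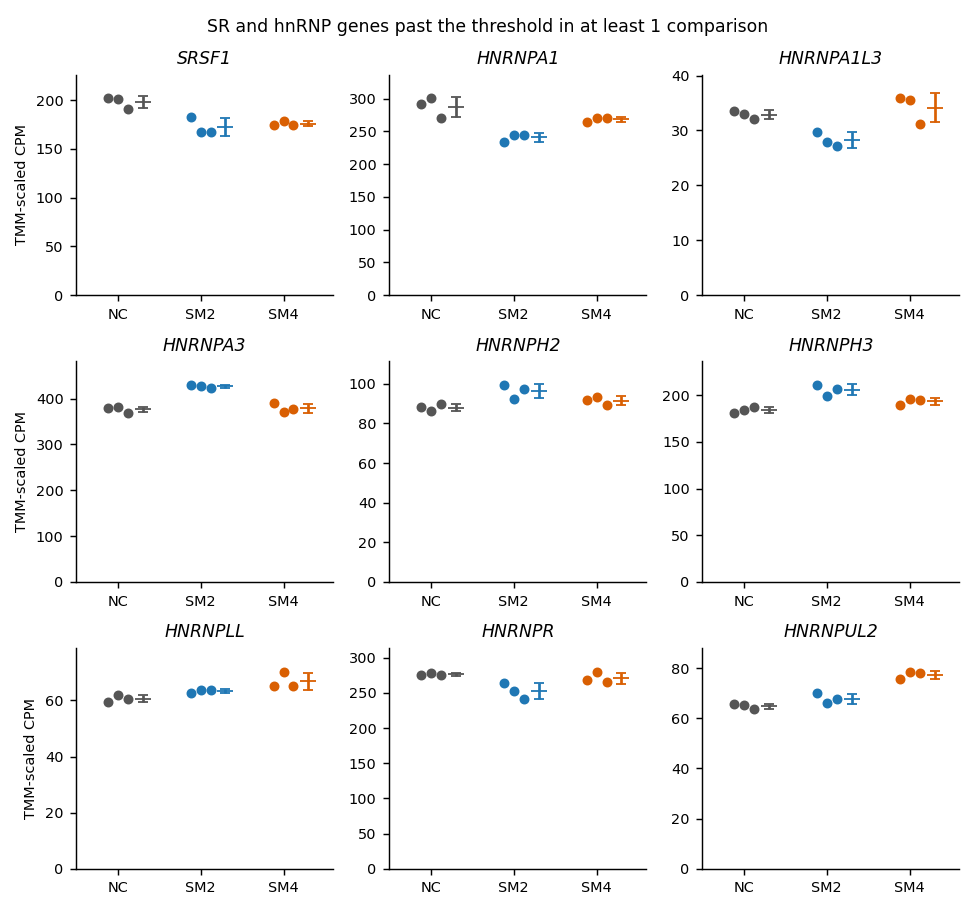
TMM-scaled CPM (vertical axis from 0) of the 9 members called in at least 1 comparison, with each library as a point and the mean ± SD of 3 libraries beside it, for NC, SM2 and SM4. SRSF1 is lower in all SM2 and SM4 libraries than in NC (198 against 173 and 176 CPM on average), HNRNPA1 and HNRNPA3 depart in SM2 in opposite directions, and HNRNPUL2 is higher in the 3 SM4 libraries (75.5 to 78.5 CPM).

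The 4 members tied to m6A were of interest because the study concerned an m6A writer. None of them was called by edgeR in any of the 3 comparisons, 0 had an unadjusted p below 0.05, and DESeq2 called 0. The edgeR shares of all 19674 genes tested were 22.3% and 21.2% for SM2 and SM4 relative to NC, and 12.8% between SM4 and SM2. A list of 4 genes is too short for 0 calls to set it apart from those shares. SRSF3 (chromosome 6, 36594353 to 36605600, plus strand), the smallest SR protein and an exporter adaptor, was at 380, 386 and 365 CPM in NC, 372, 360.0 and 401 CPM in SM2, and 377, 389 and 366 CPM in SM4. The 3 groups overlapped. Its log2 fold changes were 0.0022 in SM2 (95% interval -0.09 to 0.10) and 0.0010 in SM4 (-0.09 to 0.09). SM4 against SM2 gave -0.0012 (-0.10 to 0.09). Against NC, the percent limits were -6.16 to 6.89 in SM2 and -6.23 to 6.79 in SM4, which cover only the spread between these libraries.

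SRSF10 (chromosome 1, 23964347 to 23980927, minus strand), a splicing repressor once dephosphorylated, was at 166, 167 and 164 CPM in NC, 164, 158 and 166 CPM in SM2, and 178, 164 and 175 CPM in SM4. SM4 overlapped NC because of replicate 2. The log2 fold changes were -0.03 in SM2 (95% interval -0.12 to 0.06) and 0.05 in SM4 (-0.04 to 0.14). SM4 against SM2 gave 0.08 (-0.01 to 0.17, edgeR adjusted p = 0.26).

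HNRNPC (chromosome 14, 21209136 to 21269494, minus strand) binds uridine tracts and blocks cryptic exons. It was at 517, 522 and 505 CPM in NC, 559, 508 and 530.4 CPM in SM2, and 534, 541 and 499 CPM in SM4, with overlap between all groups. The log2 fold changes were 0.05 in SM2 (95% interval -0.04 to 0.14) and 0.03 in SM4 (-0.06 to 0.12). SM4 against SM2 gave -0.02 (-0.11 to 0.07). Its copy HNRNPCP2 took 40.9 CPM on average and was lowest, at 29.0 CPM, in SM2 replicate 1, the library in which HNRNPC was highest.

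HNRNPA2B1 (chromosome 7, 26171151 to 26201529, minus strand), the most counted member, was at 1863, 1832 and 1872 CPM in NC, 1874, 1879.9 and 1881 CPM in SM2, and 1879.9, 1843 and 1937 CPM in SM4. Although the SM2 libraries were all above the NC libraries, the difference was 1.23% (percent limits -3.72 to 6.45, edgeR adjusted p = 0.78). In SM4 it was 1.66% (percent limits -3.31 to 6.90), and for SM4 against SM2 it was 0.42% (percent limits -4.49 to 5.59). The gene overlaps CBX3 (448 CPM) and NFE2L3 (237 CPM) on the opposite strand, and whether strand was used in counting is not given in the sources used here, so reads of these genes cannot be told apart there.

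**Figure D5:**
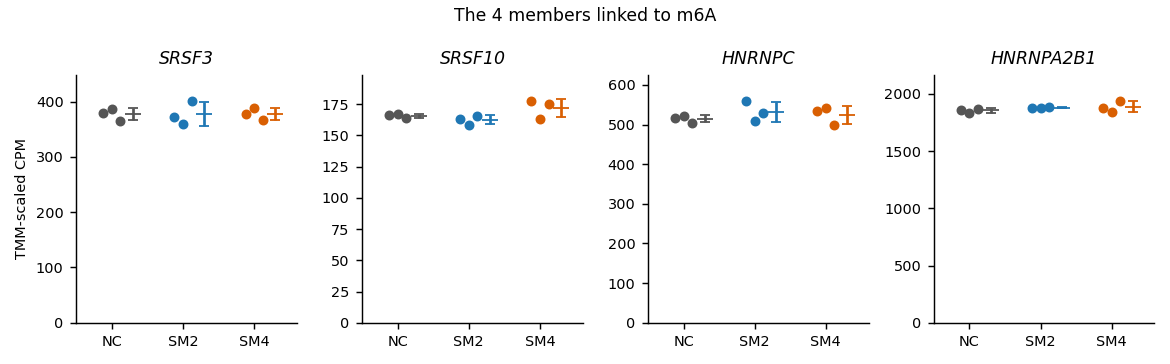
TMM-scaled CPM (vertical axis from 0) of SRSF3, SRSF10, HNRNPC and HNRNPA2B1 in every library of NC, SM2 and SM4 (points), with mean ± SD of 3 libraries beside them. The group means differ little for each gene, for example 377, 378 and 377 CPM for SRSF3.

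YTHDC1, the nuclear reader that recruits SRSF3 and SRSF10, was at 85.0, 84.6 and 81.4 CPM in NC, 90.8, 84.5 and 83.9 CPM in SM2, and 91.6, 88.0 and 87.0 CPM in SM4. Its log2 fold changes were 0.05 in SM2 (edgeR adjusted p = 0.55) and 0.09 in SM4 (edgeR adjusted p = 0.21). SM4 was above NC in each library, but by less than the test could call.

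The remaining hnRNP genes were not called in any comparison. They were HNRNPA0, HNRNPAB, HNRNPD, HNRNPDL, HNRNPF, HNRNPH1, HNRNPK, HNRNPL, HNRNPM, HNRNPU and HNRNPUL1. Against NC, closest to the threshold was HNRNPUL1, at 0.10 in SM4 (95% interval 0.0020 to 0.20, edgeR adjusted p = 0.15). Next came HNRNPAB, the highest member by TPM over exon unions, at -0.07 in both comparisons (edgeR adjusted p = 0.24 and 0.22). HNRNPK, a poly(C)-binding member, had intervals of -0.12 to 0.05 in SM2 and -0.10 to 0.06 in SM4. HNRNPU, which organises nuclear RNA and chromatin, ranged from 693 CPM in SM2 replicate 3 to 802 CPM in SM2 replicate 1, a spread that spanned every NC and SM4 library.

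Copies of members were counted as genes of their own in the table. HNRNPA1 had 74 annotated pseudogenes named after it, with 27.1 CPM in total, or 9.24% of the sum of gene and copies. HNRNPA3 had 16 with 49.1 CPM (11.1%), HNRNPC 9 with 42.4 CPM (7.49%), HNRNPK 5 with 43.2 CPM (5.78%) and HNRNPL 2 with 34.4 CPM (10.8%). Every other member had copies amounting to less than 1% of its sum. The copy of HNRNPA3 shown above, HNRNPA3P6, was at 26.4, 26.3 and 31.2 CPM in NC, 37.1, 32.1 and 30.4 CPM in SM2, and 28.5, 26.2 and 27.8 CPM in SM4. It was higher in SM2 (log2 0.24, SE 0.08, edgeR adjusted p = 0.027), as its parent was, though with overlap between SM2 and NC. When counts of copies were added to their parents, HNRNPA1, HNRNPA3, HNRNPH3, HNRNPR and SRSF1 were still called in SM2 against NC, and the same 3 members as before in SM4 against NC.

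Other sequence features were read from the annotation. GGACT, one spelling of the motif at which the METTL3 complex methylates adenosine, occurred at a median of 0.632 per kb in the 33 members with a MANE Select transcript, against 0.934 per kb over 13637 such transcripts of tested genes. It was 0.523 per kb for SR genes and 0.860 per kb for hnRNP genes. HNRNPA2B1 held 0 in 3628 bases, SRSF3 2 in 4228, SRSF10 4 in 7656 and HNRNPC 2 in 3165, whereas SRSF9 was highest with 3 in 1152 bases. Among called members, HNRNPA1 held 7 (1.87 per kb), HNRNPUL2 7 (1.34 per kb), SRSF1 3 (0.561 per kb) and HNRNPA3 2 (0.350 per kb). These are matches of letters in unmodified reference sequence and do not show methylation.

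RefSeq promoter windows of 300 bases (GRCh38.p14) matched 30 of the 34 members. Searched on both strands, with overlaps between motifs allowed, the CCAAT box (CCAAT) was in 15 of 30 (50%) against 36.6% of 15345 protein-coding promoters. The E-box CACGTG was in 7 of 30 (23.3%, 8.89% of all), TATAAA in 5 (16.7%, 9.63% of all), the GC box GGGCGG in 20 (66.7%, 59.2% of all) and the ETS core CCGGAAG in 5 (16.7%, 14.4% of all). Both a CCAAT box and an E-box were in 3 of 30, HNRNPA3, HNRNPH2 and HNRNPH3, against 3.15% of all promoters. These are also the members called higher in SM2 against NC, though HNRNPH2 and HNRNPH3 were not called in SM4 against SM2. That pairing of motifs was chosen after the values were seen, so the match cannot serve as support, and it was not tested. Because a window is a fixed stretch around 1 annotated start, these are descriptions and not tests.

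Related splicing genes were read from lists outside the symbol rule. Of all genes tested, 22.3% were called in SM2 against NC and 21.2% in SM4 against NC. Of 10 tested hnRNP genes with other symbols, SM2 had 1 higher and 1 lower (20%), while SM4 had 1 lower (10%). PTBP3, a polypyrimidine tract binding protein, was lower in both, at 294 ± 14.2 CPM in NC, 244 ± 26.8 in SM2 and 247 ± 9.24 in SM4 (edgeR log2 -0.27 and -0.25, adjusted p = 0.0029 and 0.0051). Both comparisons share the NC libraries, and SM4 differed from SM2 by log2 0.018 (edgeR adjusted p = 0.90). RALY, a relative of HNRNPC, was higher in SM2 at 297 ± 9.94 CPM against 255 ± 2.99 in NC (log2 0.22, edgeR adjusted p = 0.00063), and lower in SM4 than in SM2 (edgeR adjusted p = 0.0098), a call lost without SM4 replicate 1 (adjusted p = 0.11).

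Of 10 genes for SR protein kinases and nuclear import, SM2 had 4 lower and 0 higher, while SM4 had 1 in each direction. SRPK1, which phosphorylates SR proteins in the cytoplasm, was at 77.5 ± 1.07 CPM in NC, 66.0 ± 3.96 in SM2 (log2 -0.23, edgeR adjusted p = 0.0015) and 70.1 ± 1.09 in SM4 (log2 -0.14, edgeR adjusted p = 0.041). Both comparisons share the NC libraries, and SM4 differed from SM2 by log2 0.09 (edgeR adjusted p = 0.28). CLK4, a nuclear SR kinase, was lower in SM2 at 18.9 ± 0.954 against 22.3 ± 0.437 CPM (log2 -0.24, edgeR adjusted p = 0.021). DYRK1A, a kinase of nuclear speckles, was higher in SM4 at 31.3 ± 0.365 against 24.7 ± 0.999 CPM (log2 0.34, edgeR adjusted p = 0.0011), and also against SM2 (log2 0.30, edgeR adjusted p = 0.0058). The call of SRPK1 in SM4 was lost in 10 of 17 alternatives, among them leaving out any NC or SM4 library (adjusted p up to 0.14), and that of CLK4 without NC replicate 1, NC replicate 2 or SM2 replicate 1 (adjusted p up to 0.078). This list was called in 40% of its genes in SM2 and 20% in SM4, beside 33.6% and 32.4% of the protein-coding genes of at least 30 CPM.

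Of 13 SR-related cofactors, SM2 had 2 higher and 1 lower (23.1%), while SM4 had 1 higher (7.69%). The shares over all genes tested were 22.3% and 21.2%. U2AF2, which binds the polypyrimidine tract before the 3′ splice site, was higher in both, at 248 ± 6.98 CPM in NC, 295 ± 8.47 in SM2 and 295 ± 6.07 in SM4 (edgeR log2 0.25 in both, adjusted p = 0.00012 and 0.00010). U2AF2 differed between SM4 and SM2 by log2 0.0030 (edgeR adjusted p = 0.98), and both comparisons share the NC libraries. U2AF1, its partner, was called higher in SM2 with 1 library far above the rest. It was at 10.0 CPM in SM2 replicate 1 and 1.41 to 2.50 CPM in the other 8, and without that library the edgeR adjusted p was 0.64. DESeq2 did not call it, and the call was also lost without NC replicate 1 or NC replicate 2. Its level is uncertain, since GRCh38 carries a near-identical copy of the gene. SRRM1, a coactivator of SR-bound enhancers, was higher in SM4 than in SM2 (log2 0.16, edgeR adjusted p = 0.024), a call lost without SM2 replicate 3 or any SM4 library (adjusted p up to 0.099).

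Of 34 core spliceosome genes, SM2 had 1 higher and 4 lower (14.7%), while SM4 had 1 in each direction (5.88%). The shares over all genes tested were 22.3% and 21.2%. SF1, which recognises the branch point, was lower in SM2 at 408 ± 19.0 against 471 ± 12.7 CPM (log2 -0.21, edgeR adjusted p = 0.00093), as was PRPF4 of the tri-snRNP (log2 -0.20, edgeR adjusted p = 0.0040). SNRPB2, a U2 snRNP protein, was lower in SM4 (log2 -0.22, edgeR adjusted p = 0.0072), while XAB2 was higher both in SM2 (log2 0.14, edgeR adjusted p = 0.039) and in SM4 (log2 0.15, edgeR adjusted p = 0.025). Both XAB2 comparisons share the NC libraries. In SM4 against SM2, 2 core spliceosome genes were higher and 2 lower (11.8%, beside 12.8% of all genes tested). They included the helicase SNRNP200 (log2 0.21, edgeR adjusted p = 0.0066) and SF3B5 (log2 -0.18, edgeR adjusted p = 0.043). Of 10 genes of nonsense-mediated decay, UPF3B was higher in SM2 (log2 0.30, edgeR adjusted p = 0.0046) and SMG5 in SM4 (log2 0.13, edgeR adjusted p = 0.025), 10% of the list in each. Several of these calls rested on single libraries. SMG5 lost its call without any NC or SM4 library, XAB2 in SM4 without NC replicate 1, NC replicate 2, SM4 replicate 2 or SM4 replicate 3, SNRPB2 without NC replicate 2 (adjusted p = 0.053), and SF3B5 in 9 of 17 alternatives, 7 of which each left out a library: any NC library, SM2 replicate 2, SM2 replicate 3, SM4 replicate 1 or SM4 replicate 3. Their highest adjusted p was 0.12 for SMG5, 0.12 for XAB2 and 0.17 for SF3B5.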

How the data were processed

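Polyadenylated RNA of 9 OVCAR5 libraries, 3 each labelled NC, SM2 and SM4, was analysed from the raw gene counts that the authors deposited, which carry no normalization. Per the study's methods and the submitters' processing notes, the authors checked reads with FastQC or fastp, aligned them to GRCh38 (hg38) with HISAT2 and counted them with featureCounts of Subread. Versions, gene annotation and strand setting are not given in the sources used here, and labels and methods name different library kits and read layouts. The study used DESeq2.

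Of 60649 identifiers, 60463 matched GENCODE release 44 without version. Genes were filtered with filterByExpr, scaled by TMM and fitted with the group alone by edgeR's quasi-likelihood test (edgeR 4.0.16, R 4.3.3), all 9 libraries together, and p-values were adjusted over 19674 genes by Benjamini-Hochberg. The common biological coefficient of variation was 0.0587. Intervals and counts cover these libraries, without molecular identifiers. TPM was computed over exon unions. Sequences came from GRCh38, and copies were aligned with Biopython. Alternatives were DESeq2 1.42.0, other size factors, filters, a 0.01 threshold, the libraries compared alone, a replicate block, each library left out and copies added. Replicate numbers did not pair the libraries.

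The members and lists were chosen with earlier results of these data known. Named genes were METTL3, the 4 members tied to m6A, YTHDC1, every called member, the highest and lowest of each family by TPM, and at most 2 called genes per related list and comparison. SRSF8, TRA2A, TRA2B and other uncalled members with values were named after their values were seen.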

Additional observations from a re-analysis of the deposited data

Results flagged for a closer look

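For 4 members, the difference from NC was not the same in the libraries labelled SM2 and SM4, by the edgeR test of SM4 against SM2 itself. HNRNPA3 was lower in SM4 by a log2 fold change of -0.17 (adjusted p = 0.0046), being 0.18 above NC in SM2 and 0.01 above it in SM4. HNRNPUL2 was higher in SM4 by 0.19 (adjusted p = 0.0074), being 0.26 above NC in SM4 and 0.07 above it in SM2. HNRNPA1 was higher in SM4 by 0.16 (adjusted p = 0.021), and HNRNPA1L3, a gene derived from it, by 0.28 (adjusted p = 0.0052). The latter 2 genes share sequence, so they are not separate observations. With copies added to their parents, HNRNPA1, HNRNPA3 and HNRNPUL2 were called in this comparison. METTL3 messenger RNA also differed between SM4 and SM2 (log2 0.63, adjusted p = 7.5e-08), and its part in these differences was not tested. Since METTL3 was highest in SM4, these differences cannot be read as those between knockdowns: if SM4 were the control, they would be control against knockdown with the sign turned.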

How the results depend on the processing

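Over all alternatives of named genes, 1017 values kept their direction and side of the threshold, 80 lost a call, 2 gained one and 20 changed sign, the sign changes all being of values within 0.05 of 0. At an adjusted p below 0.01, 2775, 2646 and 1393 genes were called for SM2 to NC, SM4 to NC and SM4 to SM2 in turn, beside 4389, 4173 and 2518, and 4 members in the first. Leaving out 1 library gave 3209 to 4623, 2933 to 5227 and 1574 to 2748 genes, and 3 to 8, 1 to 5 and 3 to 5 members. Fitting only the 6 libraries compared gave 8 members in SM4 against NC. SRSF3 changed sign with copies added (-0.0019 in SM2, 0.0057 in SM4 against SM2), with the 6 libraries alone (-0.0040 in SM4), and in SM4 against SM2 with DESeq2 size factors (0.0025), upper-quartile scaling (0.0027) and DESeq2 (0.0025). With 1 library left out, SRSF3 ran from -0.039 to 0.033 in SM2, -0.023 to 0.022 in SM4 and -0.031 to 0.043 in SM4 against SM2. HNRNPA3 ran from -0.0083 to 0.026 in SM4, and in SM4 against SM2 HNRNPC ran from -0.051 to 0.014 and HNRNPA2B1 from -0.013 to 0.022. The cause of these changes was not tested. Adding copies was chosen after seeing the data. Other scalings moved the median of all genes by at most 0.018. The replicate block gave 4693, 4484 and 2815 genes and 8, 3 and 4 members, adding SRSF8 in SM2 against NC. Deviations of libraries with the same number correlated at -0.082 to 0.12, so the numbers were not taken as pairs.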
